A study of Papio anubis with 40 samples.

Results

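The fragment tRF-19-PE6LQFK4 is a 19 nt piece of the arginine transfer RNA with anticodon TCT (Arg-TCT), measured here with its length, end and sequence variants in baboon serum. It was chosen from the comparison of month 15 with month 0 in these same libraries, so its difference between those months is given below as a description, with no test. Its variants were chosen by sequence: every deposited read that contains bases 2 to 17 of the 19 nt read with at most 1 mismatch. This rule found 100 of 60201 listed sequences, of which 97 carried a fragment ID and 3 held an unread base and were left out. The 97 members held 4173 of 130892201 counts. The 19 nt fragment alone held 3327 of the 4173 member counts, or 79.7%.

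Serum came from 8 olive baboons (Papio anubis) in which endometriosis was induced by placing menstrual tissue in the peritoneal cavity at laparoscopy. Each animal gave blood once ahead of inoculation (month 0) and again 3, 6, 9 and 15 months later, which gave 40 libraries, 8 per month, each from 0.5 mL of serum. All 5 groups are the same 8 animals and the labels list no other treatment. No animal went without inoculation, so time since inoculation cannot be told apart from age or from anything else that changed between draws. Serum pools RNA from all tissues, so the number of cells that release a fragment and the amount released per cell cannot be told apart. The age, sex and cycle day of the animals were not used here.

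Transfer RNAs carry amino acids to the ribosome and fold into a cloverleaf with a D arm, an anticodon arm and a T arm around an acceptor stem. Nucleases such as angiogenin and Dicer can cut them into fragments, of which the pieces left by a cut in the anticodon loop and those from either end are the best known. A fragment that lies wholly inside the molecule, as this one does, is usually called an internal tRNA fragment. Such fragments circulate in blood in vesicles or bound to protein.

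The sequences that define the fragment are printed first because the members differ mainly in where they start and end. They are written 5′ to 3′ as DNA letters, and the capitals mark the 16 bases used by the rule. The set holds the members with at least 1% of the member counts, and the longest read.
tRF-19-PE6LQFK4: gCAATGGATAGCGCATTgg
18 nt form, bases 13 to 30: CAATGGATAGCGCATTgg
tRF-20-PE6LQFZ2: gCAATGGATAGCGCATTgga
shifted 19 nt form, bases 13 to 31: CAATGGATAGCGCATTgga
tRF-19-0E6LQFK4: aCAATGGATAGCGCATTgg
tRF-65-PE6LQFZ2N7D9BKYSR95M3J63L6: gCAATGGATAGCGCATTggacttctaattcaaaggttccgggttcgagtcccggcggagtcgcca

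The parent tRNA was put together from deposited reads alone: a 54 nt read from the 5′ end with 2 counts, and the 65 nt read above with 1 count, which share their overlap. Together they give 76 bases that end in CCA, the tail of a mature tRNA. Some members differ from it outside the 19 nt fragment. Gene copies that differ by a base, sequencing error and modified bases misread in cDNA synthesis cannot be told apart there. Counting from base 1 of the tRNA, G9T was read in 4 of the 10 member counts that cover base 9, among them a second 54 nt read with 2 counts. C32T was read in 11 of the 31 member counts that cover base 32. In the next sequence the capitals mark the 19 nt fragment.
assembled Arg-TCT tRNA: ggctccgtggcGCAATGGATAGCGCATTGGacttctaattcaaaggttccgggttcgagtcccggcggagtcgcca
The fragment spans bases 12 to 30, from the D arm into the 5′ strand of the anticodon stem. It stops short of the anticodon, which lies at bases 34 to 36. All 11 members that span the anticodon read TCT there, and they hold 20 counts, so the parent rests on few reads. Other fragments that span it were found by exact match to the assembled sequence and so are no separate reading. The genes that encode this tRNA were not located, since no genome was used here.

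**Figure D1:**
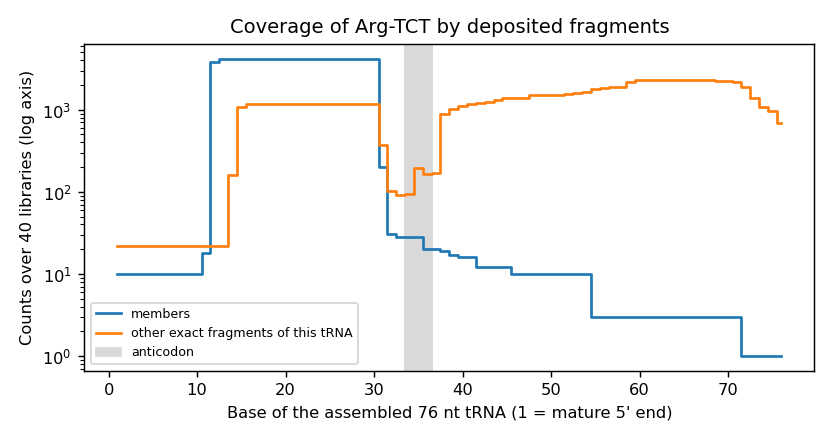
Counts over 40 libraries (y axis, log) covering each base of the assembled tRNA (x axis), for the members (blue) and for the 197 other exact fragments of the same tRNA (orange), with the anticodon at bases 34 to 36 in grey. Members cover base 13 with 4173 counts and base 32 with 31, and the other fragments cover mostly the D arm and the T arm side, with 91 counts at base 33.

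Most members shared both ends with the 19 nt fragment. The rule limits this, since a member must hold bases 13 to 28, or 1 mismatch of them, and so cannot start after base 13 or stop before base 28. Of the member counts, 91.3% began at base 12 and 8.22% at base 13, while 0.431% began earlier. At the 3′ end, 94.2% of counts stopped at base 30 and 4.05% at base 31. Only 0.743% ran further and 0.983% stopped earlier. Reads with both ends of the 19 nt fragment, substituted reads included, held 3675 counts or 88.1%. By length, 19 nt reads held 89.8% of the counts, 18 nt reads 6.59% and 20 nt reads 2.44%. The 18 nt form, which lacks the first base, was the next most abundant member with 231 counts in 30 libraries. The 20 nt form tRF-20-PE6LQFZ2, with 1 more base at the 3′ end, had 80 counts in 24 libraries. Then came the shifted 19 nt form, the same length moved by 1 base, with 59 counts in 22 libraries. A second 18 nt form, tRF-18-PE6LQF0P, stops 1 base early at base 29 and had 25 counts. Of the 97 members, 78 had fewer than 10 counts over all libraries and 38 had 1.

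**Figure D2:**
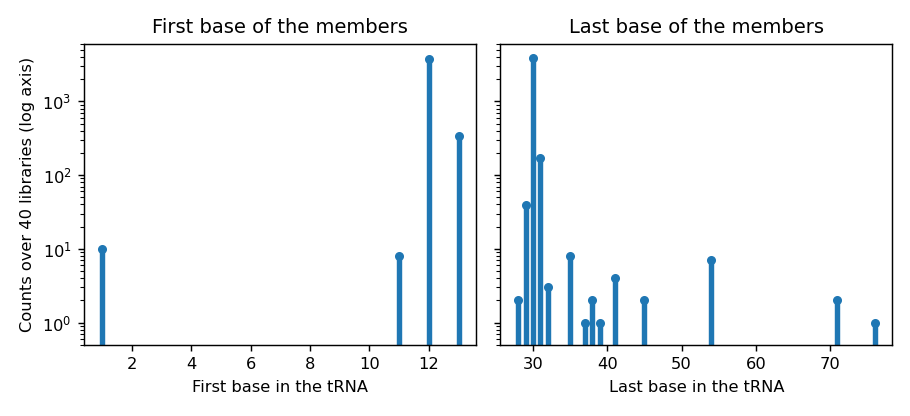
Summed counts over 40 libraries (y axis, log) of members by their first base (left) and last base (right) in the tRNA (x axis). Bases 12 and 30 hold 91.3% and 94.2% of the 4173 counts, and the next base at either end holds most of the rest. The rule leaves out reads that start after base 13 or stop before base 28.

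Longer reads that contain the fragment were rare. The 19 members of 24 nt or more held 34 counts, 0.815% of the total (Wilson 95% interval 0.584 to 1.14%). They included 10 counts that began at base 1, the mature 5′ end. Intervals here cover counting error only, since the labels do not state whether reads were collapsed by molecular identifier.

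Reads of the same arm that start later lie just outside the rule. Only 2 fragments with 3 counts had 2 mismatches in the window. The 16 nt fragment tRF-16-I2VHJY0 begins at base 15 and ends at base 30 like the 19 nt fragment. It had 676 counts in 38 libraries, equal to 20.3% of the counts of the 19 nt fragment, and is printed because it shares that end.
tRF-16-I2VHJY0: atggatagcgcattgg
The 17 nt fragment tRF-17-D8HJPN4 begins at base 14, also ends at base 30, and had 125 counts. Others end 1 base later, at base 31: tRF-17-I2VHJYL from base 15 had 192 counts in 32 libraries and tRF-16-9EFVI8B from base 16 had 76 in 22. Members and exact non-members that end at base 30 or 31 held 5183 counts together. Of these, 72.7% began at base 12, 6.19% at base 13, 2.66% at base 14, 16.7% at base 15 and 1.47% at base 16. Non-members were taken from 16 nt up. A read that ends at base 30 therefore could not start after base 15, nor one that ends at base 31 after base 16. Starts at bases 12 and 13 include substituted members, while those at bases 14 to 16 are exact matches only, so the shares are not on equal terms. A read of 16 nt could come from other tRNAs with the same bases. The sequence of tRF-16-I2VHJY0 lay in 52 longer reads with 4222 counts that were members or exact parts of the assembled tRNA. It also lay in 7 longer reads with 7 counts that were neither. Whether those 7 come from another tRNA, or from Arg-TCT with a differing base, was not tested.

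Reads with 1 substitution were a minority. Positions here count from 1 at the 5′ end of the 19 nt fragment, and a token gives the fragment's base, the position and the read's base. In all, 37 kinds of single substitution held 348 counts, 9.47% of the reads with the same start, end and length. G1A was the most frequent with 47 counts, followed by A8G with 29, A4C with 26, A10G and A10C with 18 each, and T5C and A3C with 17 each. Position 1 was substituted in 1.54% of counts, position 4 in 1.22%, position 8 in 1.19% and position 10 in 1.10%. Position 18 was lowest, with 0.0901%. The rate per base was 0.498%. Among the 10 most abundant fragments, 6 had a lower value, from 0.307 to 0.455%, and 4 a higher one, from 1.13 to 2.91%, with no test. Such a value counts every read that differs by 1 base, however abundant that read is. The highest values, 2.49% and 2.91%, belong to tRF-31-79MP9P9NHR7SD and tRF-31-79MP9PMNH57SD, each 1 base from the most abundant fragment, tRF-31-79MP9P9NH57SD. Its 26446724 counts enter both values and their counts enter its 1.13%, so those values are no misreading rates. Relatives of a tRNA that differ by a base, sequencing error and modified bases misread in cDNA synthesis cannot be told apart in such counts. Of the members, 60 carried 1 mismatch in the window, with 323 counts or 7.74%.

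**Figure D3:**
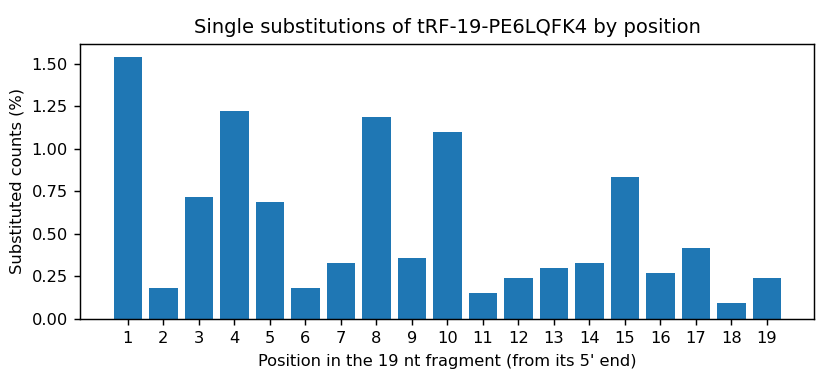
Percent of counts with a single substitution (y axis) at each position of the 19 nt fragment from its 5′ end (x axis), over 40 libraries. Position 1 is highest at 1.54%, with positions 4, 8 and 10 above 1%, and position 18 lowest at 0.0901%.

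Depth differed: the shallowest library, PA8001 at month 0, held 198840 counts and the deepest, PA8914 at month 9, held 6245450. Levels are given as TMM-scaled CPM: counts in a library brought to 1000000, with each total first multiplied by a factor that aligns most fragments between libraries. The factors ran from 0.458 (PA8003, month 15) to 1.93 (PA8001, month 0). A count of 0 allows up to 3 counts, which is 0.568 to 7.82 CPM, and the highest of these limits is that of PA8001 at month 0. A group of 3 libraries stood apart by their mean correlation with the others: PA8001 at month 0 (0.724) and month 15 (0.735), and PA8003 at month 15 (0.742). The next lowest was 0.843 and the highest 0.919. Both month 15 libraries enter the results below, which are therefore also given without them. Fragments of 16 to 24 nt made up 0.678 ± 0.178% of counts at month 0 (SD, n = 8) and 0.933 ± 0.289% at month 15, so that share moved with the level of the fragment described next. Its part in the result was not tested.

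The 19 nt fragment was found in 39 of 40 libraries, and was at 0 only in the shallow month 0 library of PA8001. At month 0 its level ran from 0 to 50.2 CPM with a median of 17.2 and a mean of 19.8 ± 16.6 (SD, n = 8). The median at month 3 was 16.9 CPM (6.42 to 61.3), with a mean of 29.0 ± 22.7. Month 6 gave a median of 8.35 CPM (2.50 to 41.8) and a mean of 14.0 ± 13.6. At month 9 the median was 12.7 CPM (3.12 to 44.0) and the mean 15.7 ± 12.9. These 4 months overlapped widely, and within each the SD was 78.3 to 97.5% of the mean. The order of the monthly means was 6, 9, 0, 3 and 15, and neighbours among the first 4 differed by less than their SDs.

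Month 15 had the highest level, with a median of 48.6 CPM (16.9 to 147) and a mean of 56.6 ± 41.3 (SD, n = 8). PA8003 reached 147 CPM there, after 5.35 to 6.42 CPM in its 4 earlier draws. PA8915 stood at 79.8 CPM, PA8873 at 53.5, PA8914 at 52.9 and PA8835 at 44.2. PA8912 had 31.5 CPM, PA8001 27.1 and PA8872 16.9. Seen against month 0, 7 of 8 animals were higher and PA8872 was lower, from 33.7 to 16.9 CPM. Month 15 and month 0 still overlapped: 4 of the 8 month 15 values lay above every month 0 value. By library totals alone only 1 of 8 did, PA8915 at 109.8 CPM, since PA8915 at month 0 then stood at 74.8.

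The fold between these months, in TMM-scaled CPM, differed widely between animals. It was 24.4 in PA8003, 6.49 in PA8914, 3.61 in PA8835, 2.08 in PA8873, 1.59 in PA8915 and 1.42 in PA8912. In PA8001 the level was at least 3.47-fold higher at this scaling, counted against the 3 counts that its month 0 library allows. That bound depends on the factor of 1.93 for that library and is lower by library totals alone. The fitted log2 difference was 1.92 ± 0.52 (SE). In this contrast 2.37% of the 2447 fragments tested passed an adjusted p of 0.05 in edgeR's quasi-likelihood test, and the fragment was chosen from it. Without PA8003 the log2 difference was 1.28, and with both PA8001 and PA8003 left out at month 15 it was 1.11. The month 15 mean without PA8003 was 43.7 ± 20.9 CPM (n = 7). By library totals alone, PA8003 went from 5.36 CPM at month 0 to 67.3 at month 15, a smaller fold than with TMM scaling. The month means were then 22.3 CPM at month 0 and 53.8 at month 15.

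**Figure D4:**
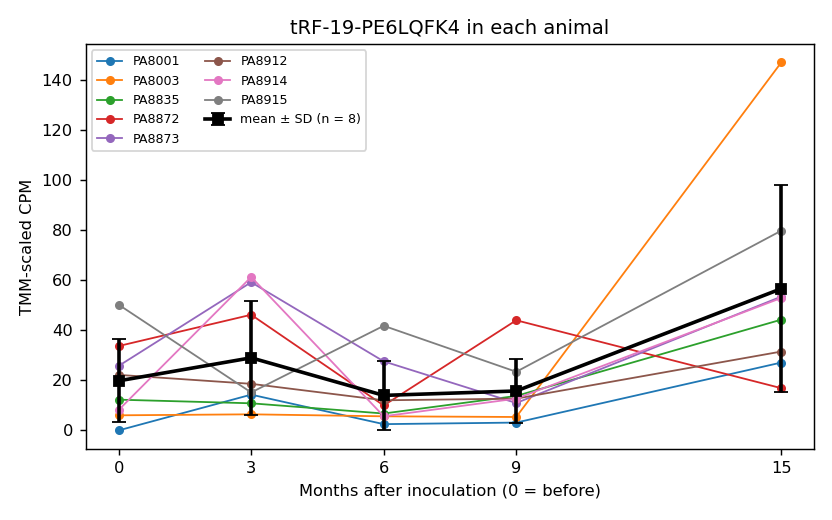
Level of the 19 nt fragment in TMM-scaled CPM (y axis) by month after inoculation (x axis), with a coloured line per animal and black squares for the mean ± SD of 8 animals. The lines cross at most months, and at month 15 PA8003 reaches 147 while PA8872 lies at 16.9.

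Against months 3, 6 and 9, the month 15 level is likewise a description, since it rests on the libraries that chose the fragment. The log2 differences were 1.16 ± 0.51 (SE) against month 3, 2.48 ± 0.52 against month 6 and 2.19 ± 0.52 against month 9. Without PA8003 they were 0.55, 1.96 and 1.63, and with PA8001 and PA8003 both left out at month 15 they were 0.37, 1.63 and 1.36. Month 15 was higher in 5 of 8 animals against month 3, in 8 of 8 against month 6 and in 7 of 8 against month 9. The highest draw of an animal was month 15 in 5 animals and month 3 in the other 3, PA8872, PA8873 and PA8914. The lowest draw was month 6 in 4 animals, month 9 in 2 and month 3 in 1. In PA8001 it cannot be placed, since the 7.82 CPM that its month 0 library allows lies above its values at months 6 and 9.

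The earlier months gave 6 comparisons, of which none passed. Only the 3 among months 3, 6 and 9 share no library with the choosing contrast. Months 3, 6 and 9 were also compared with month 0, whose libraries also served in choosing the fragment. Those 3 tests are not free of that choice, so no conclusion is drawn from their p-values. The log2 difference at month 3 was 0.76 ± 0.50 (SE), with 5 of 8 animals higher and an edgeR adjusted p of 0.999. The difference at month 6 was -0.56 ± 0.49, with 6 of 8 animals lower and an edgeR adjusted p of 0.683. At month 9 it was -0.27 ± 0.49, with 4 of 8 animals lower and an edgeR adjusted p of 0.873. PA8001 counts as higher at months 6 and 9, but its direction is not known, given the limit of its month 0 library. In each of these 3 comparisons 0% of the 2447 fragments passed, while 73, 310 and 201 had an unadjusted p under 0.05. DESeq2 called 0, 17 and 0 fragments and limma-voom 0 in each.

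Among months 3, 6 and 9, whose libraries did not choose the fragment, the widest gap was between months 3 and 6. Month 6 was lower than month 3 in 7 of 8 animals, by a log2 difference of -1.32 ± 0.50 (SE), with an unadjusted edgeR p of 0.0131 and an adjusted p of 0.999. Only PA8915 was higher at month 6, at 41.8 against 15.1 CPM. Month 9 was lower than month 3 in 6 of 8 animals, with -1.03 ± 0.50, an unadjusted edgeR p of 0.047 and an adjusted p of 1.00. Month 9 against month 6 gave 0.29 ± 0.50 and an edgeR adjusted p of 0.999. These 3 comparisons also called 0% of the fragments, with 44, 56 and 49 at an unadjusted p under 0.05, and DESeq2 and limma-voom called 0 in each.

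Animals differed from one another in the joint test over all draws, a call that several alternatives below do not keep. The mean over 5 draws ran from 9.40 ± 11.3 CPM (SD, n = 5) in PA8001 through PA8835 (17.6 ± 15.1), PA8912 (19.4 ± 7.97), PA8914 (28.1 ± 26.7), PA8872 (30.1 ± 16.2), PA8003 (34.1 ± 63.1) and PA8873 (35.4 ± 20.3) to 42.1 ± 25.3 in PA8915. Neighbours in this order differed by less than the larger of their SDs. A joint edgeR test of the animal terms gave an adjusted p of 0.0352, with a range of 2.64 on the log2 scale. Such differences were common in the table, since 34.1% of the 2447 fragments passed the same test, and 22.7% of the 128 other fragments of 18 to 20 nt.

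The call between animals rested on few libraries. With only months 3, 6 and 9, which share no library with the choosing contrast, the edgeR adjusted p was 0.0584, and it was 0.0542 without the month 0 library of PA8001. It was 0.181 without PA8001, 0.0592 without PA8835, 0.0574 without PA8914 and 0.0612 without PA8915, and limma-voom gave 0.107. In the 3 middle draws PA8003 stayed within 5.35 to 6.42 CPM, while PA8914 ran from 5.64 to 61.3 CPM.

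The other members together were also highest at month 15 and lowest at month 6, at lower levels. Of the 97 members, 1 passed the filter on low counts, the 19 nt fragment itself, so the other 96 are described by their sum, with no test. That sum had a mean of 5.17 ± 5.35 CPM at month 0 (SD, n = 8), 6.27 ± 3.65 at month 3, 3.77 ± 2.01 at month 6, 5.99 ± 5.29 at month 9 and 14.7 ± 9.01 at month 15. Month 15 was higher than month 0 in 7 of 8 animals, and 3 of its 8 values lay above all of month 0, or 1 of 8 by library totals alone. Against month 6, the sum at month 15 was higher in 8 of 8 animals. Without PA8003 the month 15 mean was 12.7 ± 7.68 CPM (n = 7). Substituted reads of the 19 nt fragment are part of this sum, so it is not a separate measurement of its level.

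The 18 nt form of bases 13 to 30 had a mean of 1.26 ± 1.27 CPM at month 0 and 4.48 ± 3.69 at month 15 (SD, n = 8). Its lowest, median and highest values were 0, 1.15 and 3.68 CPM at month 0, and 1.44, 3.02 and 11.0 at month 15. It was higher at month 15 in 8 of 8 animals, although the 3.39 CPM of PA8001 lies below the 7.82 CPM that a count of 0 allows in its month 0 library. The direction in PA8873, from 1.15 to 1.44 CPM, rests on 5 counts at month 0 and 3 at month 15. PA8003 went from 0 to 17 counts and PA8915 from 11 to 36. At months 3, 6 and 9 its means were 1.99 ± 1.94, 0.772 ± 0.505 and 0.831 ± 1.14 CPM.

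The 20 nt form tRF-20-PE6LQFZ2 had its highest mean at month 9, at 1.35 ± 1.49 CPM, against 0.613 ± 1.13 at month 0 and 1.05 ± 2.14 at month 15 (SD, n = 8). At month 15 it was at 0 in 4 libraries, and PA8003 held 11 of the 18 counts. Its levels lie near the limit that a count of 0 allows. The shifted 19 nt form ran from 0.258 ± 0.307 CPM at month 0 to 1.38 ± 1.25 at month 15, and tRF-19-0E6LQFK4 (G1A) from 0.346 ± 0.332 to 0.841 ± 0.968. Both forms rest on few counts. At month 0, 7 of 8 libraries held 3 counts or fewer of the shifted form, and 8 of 8 of tRF-19-0E6LQFK4. At month 15 this was so in 5 of 8 libraries for each.

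The share of member counts held by the 19 nt fragment did not pass a test between months. In libraries with at least 10 member counts it averaged 81.6 ± 4.71% at month 0 (SD, n = 7), 79.4 ± 6.78% at month 3 (n = 8), 73.5 ± 11.2% at month 6 (n = 8), 72.1 ± 14.6% at month 9 (n = 7) and 78.2 ± 5.61% at month 15 (n = 8). The months overlapped. In exact two-sided sign-flip permutation tests over animals, the smallest p was 0.0625, for month 9 against month 3, where 5 of 7 animals were lower and the mean difference was -7.51 points. Adjusted over the 6 comparisons made, the smallest p was 0.266. With 7 animals this exact test cannot go below 0.0156. Pooled over libraries, the share was 75.0% at month 9 (Wilson 95% interval 71.1 to 78.5%) and 83.1% at month 3 (80.6 to 85.3%), intervals that do not include animal-to-animal spread.

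The 16 nt fragment tRF-16-I2VHJY0 had the same order of monthly means as the 19 nt fragment: 6, 9, 0, 3 and 15. Its mean was 4.60 ± 2.85 CPM at month 0 (SD, n = 8), 6.83 ± 5.39 at month 3, 2.01 ± 1.59 at month 6, 3.68 ± 3.57 at month 9 and 11.7 ± 7.53 at month 15. PA8003 was highest at month 15 with 25.5 CPM, and PA8835 was lowest with 4.10. Against month 0, 5 of 8 animals were higher at month 15, with a log2 difference of 1.33 ± 0.56 (SE). All month 15 differences of the 16 nt fragment are given with no test, since the month 15 libraries served in choosing its longer neighbour. Against month 3 the 16 nt fragment was higher at month 15 in 5 of 8 animals, by 0.92 ± 0.55. Against month 6 it was higher in 8 of 8 animals, by 2.65 ± 0.59 on the log2 scale. Against month 9 it was higher in 6 of 8 animals, by 1.93 ± 0.58. The difference from month 9 was 1.53 without PA8003, and 1.23 with PA8001 and PA8003 both left out at month 15. Both fragments come from the same arm of the same tRNA in the same libraries, so these differences are not independent of the choice of the 19 nt fragment. Animals did not pass for the 16 nt fragment in the joint test (edgeR adjusted p = 0.696).

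Beside the members, 197 exact fragments of the assembled tRNA held 3548 counts, of which 2 passed the filter. Most lay on the 3′ side: 139 fragments with 1663 counts lacked the CCA end and 28 with 693 counts had it. Only 2 fragments with 22 counts began at the mature 5′ end. Fragments ending in CCA had a mean of 4.20 ± 4.58 CPM at month 0 and 12.9 ± 7.61 at month 15 (SD, n = 8), higher in 7 of 8 animals. Short ones among them could also come from other tRNAs, which was not tested. The sequence of tRF-18-SR681SD2, with 172 of these counts, lay in 26 longer reads with 433 counts that were members or exact parts of the assembled tRNA. It also lay in 27 longer reads with 36 counts that were neither, and the parents of those reads were not looked for. In all libraries, reads ending in CCA made up 0.0916 ± 0.0494% of counts at month 0 and 0.181 ± 0.0898% at month 15, values given with no test. The most abundant 3′ fragment covers bases 38 to 72, the anticodon loop to the acceptor stem, and is printed because it is the other Arg-TCT fragment that passed the filter. Its class as a whole, the 139 fragments on the 3′ side without the CCA end, had a mean of 10.7 ± 7.31 CPM at month 0, 8.62 ± 2.88 at month 6 and 14.5 ± 11.6 at month 15 (SD, n = 8). Month 15 was higher than month 0 in 4 of 8 animals for that class.
tRF-35-I6D3887S1RMH5M: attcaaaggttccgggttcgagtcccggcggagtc
The mean of the 35 nt fragment was 1.68 ± 1.48 CPM at month 0, 4.91 ± 7.42 at month 3, 1.76 ± 1.12 at month 6, 3.15 ± 2.68 at month 9 and 0.985 ± 1.14 at month 15 (SD, n = 8). Month 15 was lower than month 0 in 5 of 8 animals, with a log2 difference of -0.62 ± 0.76 (SE). PA8914 was highest at months 0, 3 and 9, with 3.49, 20.6 and 8.33 CPM. Between animals its edgeR adjusted p was 0.0418. That call was lost in 8 of the alternatives run, among them those without PA8914 (0.392), PA8835 (0.116), PA8001 (0.0579) and PA8872 (0.0529).

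**Figure D5:**
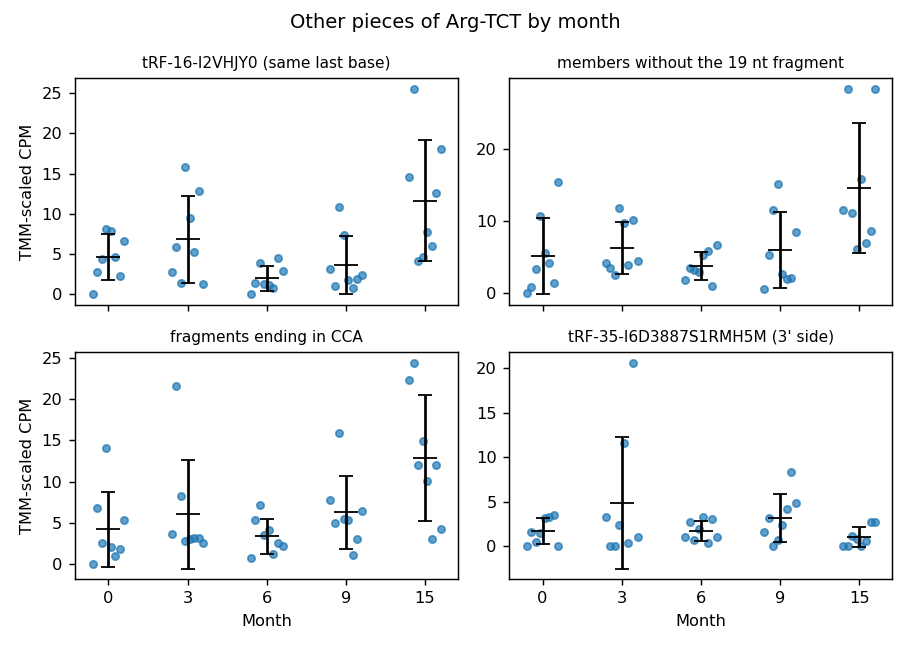
TMM-scaled CPM (y axis) by month (x axis) for the 16 nt fragment, the sum of the members without the 19 nt fragment, the sum of Arg-TCT fragments ending in CCA, and the 35 nt 3′ fragment. Points are animals and black marks the mean ± SD (n = 8); the first 3 have their highest mean at month 15, at 11.7, 14.7 and 12.9, and the 35 nt fragment its lowest, at 0.985.

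The 128 tested fragments of 18 to 20 nt that are no members had a median log2 difference of 0.32 at month 15 against month 0, with 77 of 128 higher, and the median over all 2447 was 0.054. Of the 128, 3 had a larger difference than the 1.92 of the 19 nt fragment, a rank that follows from its choice by this contrast. At month 3 the medians were 0.036 and 0.10, at month 6 -0.25 and 0.013, and at month 9 0.0008 and 0.057. Among the 59 tested fragments of exactly 19 nt, the median at month 15 was -0.22 and 21 were higher. These are descriptions of lists, and the contrast is the one that chose the fragment.

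The fragments whose level across the 40 libraries was most like that of the 19 nt fragment were no exact parts of the assembled tRNA and were also short. By Pearson correlation of log2 CPM the first was tRF-18-QW583004 with r = 0.812 (Spearman rho 0.748), then tRF-18-1SS2P4DX with 0.808, tRF-24-P4R8YP9LH7 with 0.802, tRF-18-2VR0PSDZ with 0.789 and tRF-23-P4R8YP9LD6 with 0.788. The median over all other tested fragments was 0.135. After animal and month means were removed, tRF-18-QW583004 (0.822) and tRF-18-1SS2P4DX (0.812) were again the first. The first of these was 0.693 on the log2 CPM scale without the 2 libraries farthest from the median. The 16 nt fragment of Arg-TCT ranked 10 with 0.759, and the 35 nt 3′ fragment 1255 with 0.126. The points share libraries, depth and animals, 5 libraries each, so these values are a description. The sequences of the first ones are printed to show that they differ from the members.
tRF-18-QW583004: gctgtgatggccgagtgg
tRF-18-1SS2P4DX: agtcggtagagcatggga
The level of the 19 nt fragment also moved with the share of counts in 16 to 24 nt over the 40 libraries, with r = 0.464 and rho = 0.443. For the share of counts ending in CCA these were 0.0692 and 0.162. For the log10 of the library total they were 0.409 and 0.0734. PA8001 at month 0 had both the lowest total, 198840 counts, and the only count of 0 of the fragment. The value of r without that library was not taken.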

How the data were processed

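Serum RNA was measured in 40 libraries, 8 baboons at 5 months. The deposited table holds raw counts per fragment sequence and library, as the authors made them, unscaled per its values. A second deposited table gives the sequences. The submitters' processing notes list edgeR, limma and R 4.5.0, with no role. No source used here names the aligner or says whether molecular identifiers were collapsed. Of 60201 rows, 1614 had no fragment ID, held 0.0805% of counts and were left out.

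Members were found by exact or 1-mismatch search for the 16 base window, and the parent tRNA was joined from 2 reads. Fits used edgeR 4.0.16 in R 4.3.3 on all 40 libraries: filterByExpr (minimum count 10, which kept 2447 fragments), TMM scaling, and a quasi-likelihood model (robust option) with animal as block and month as factor, and Benjamini-Hochberg adjustment over all fragments, passing under 0.05. Tests were two-sided, and the fit was tested on simulated data. The block comes from the animal numbers in the labels: in deviations from month means, same-animal libraries correlated at a mean of 0.187 and others at -0.0247, with 53 of 80 same-animal pairs above 0.1. Each draw is 1 library, so technical and biological spread within an animal cannot be told apart. Alternatives were DESeq2 1.42.0, limma-voom (limma 3.58.1), other scalings, filters and subsets of libraries.

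The members, lists and tests were chosen with earlier results of these data known. Named members were the 19 nt fragment, those passing the filter and up to 10 more by total count. The fragments most like it were the 5 outside the members with the highest Pearson correlation of log2 CPM (prior count 2). Fragments of other arginine tRNAs were not analysed here.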

Additional observations from a re-analysis of the deposited data

Results flagged for a closer look

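In groups of 8 animals, a value was singled out when its gap to the next, divided by the group's range, was above 0.526, Dixon's 95% limit. Of 35 groups of values by fragment and month, 2 did so, and chance gives about 1 in 20. Both concern the 20 nt form tRF-20-PE6LQFZ2. At month 0, PA8872 had 3.33 CPM (9 counts), and the next animal had 0.670. At month 15, PA8003 had 6.24 CPM (11 counts), and the next had 1.22. For the 19 nt fragment itself, the 147 CPM of PA8003 at month 15 had a gap of 0.516 of the range, below that limit.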

How the results depend on the processing

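The 6 month comparisons of the 19 nt fragment that do not involve month 15 did not reach an adjusted p under 0.05 in any alternative run. Of these, the 3 against month 0 share libraries with the choosing contrast. Its month 15 difference from month 0 stayed positive, from log2 1.11 to 1.96 under other settings and 1.28 to 2.18 with single animals left out. Without the animal pairing (no replicate block) it was 1.47, and month 6 against month 3 was -1.05. That fit changed no call on this fragment. Month 9 against month 6 was 0.29 and ran from -0.055 to 0.53 with single animals left out, lowest without PA8872. The adjusted p between animals, 0.0352, ran from 0.0186 to 0.181 with single animals left out, was 0.107 with limma-voom, 0.0542 without the month 0 library of PA8001 and 0.0584 with only months 3, 6 and 9. The difference in share, month 3 minus month 0, ran from -2.94 to 1.61 points with single animals left out (1.61 without PA8003) and was 1.61 with at least 20 member counts. Month 9 minus month 6 was 0.299 points with at least 5 counts. For tRF-35-I6D3887S1RMH5M, month 6 against month 0 was 0.036, was -0.068 without the replicate block and -0.0013 with PA8001 and PA8003 left out at month 15, and ran from -0.20 to 0.50 with single animals left out (-0.20 without PA8003, -0.060 without PA8915, -0.039 without PA8872, -0.029 without PA8001 and -0.025 without PA8835). Its month 9 against month 3 ran from -0.52 to 0.17, highest without PA8914. The cause was not tested for any of these. Depth limits the variants: at 0.568 to 7.82 CPM for 3 counts, members other than the 19 nt fragment lie mostly near or under the limit in single libraries.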
